A study of Homo sapiens with 6 samples.

Results

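Natural antisense transcripts are RNAs read from the DNA strand opposite to a named gene, and their official symbols carry that gene's name followed by -AS1. The set described here holds every gene whose GENCODE symbol ends in -AS1 and that had at least 50 counts in each of the 6 libraries of PLC/PRF5 cells, a human hepatocellular carcinoma line. Of the 1635 -AS1 genes listed in the count tables, 1210 had a count in at least 1 library, 544 passed the filter on low counts, and 221 had 50 counts in every library. The set was therefore chosen by its counts in the same libraries that are compared below, though not by a difference between the groups, and the 221 members are the well-measured part of the -AS1 genes rather than all of them. Each member was set beside its sense gene, the gene named in the symbol. All 221 sense genes were found in the tables, 210 of them passed the filter, and in the annotation all 221 pairs lay on opposite strands.

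The libraries were 3 of control cells and 3 of cells in which MTR4 was knocked down (MTR4 KD), all from total RNA of the same line. MTR4, gene symbol MTREX, is the RNA helicase that feeds nuclear transcripts to the RNA exosome. The study's text describes the RNA-seq as made before and after doxycycline switched on a hairpin against MTR4, and the labels name neither the hairpin nor doxycycline. The labels do not say whether the control cells carried a scrambled hairpin or received doxycycline. Effects of doxycycline and of hairpin expression therefore cannot be told apart from those of MTR4. Nothing in the labels says whether the 3 libraries of a group came from separate cultures, so p-values measure the spread between these libraries only. MTREX had 72.2, 87.4 and 74.4 counts per 1000000 counts of the library (CPM) in the control libraries and 44.6, 48.8 and 44.1 CPM after knockdown, a log2 fold change of -0.77 ± 0.09 (SE), and the groups did not overlap (edgeR adjusted p = 0.00641). Between 60686786 and 72708682 counts per library fell on genes. For HBB, the beta chain of haemoglobin and a blood marker, MTR4 KD 1 had 1086 counts where the other libraries had 0 to 5. Whether this library stood apart in other genes is not given here. Results without it are given beside those they touch.

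As background, many antisense transcripts start near the promoter of their sense gene and run away from it, while others begin inside or beyond the sense gene and run through it. In the nucleus the exosome degrades a large share of such transcripts from their 3′ ends. MTR4 brings them to it in complexes with adaptor proteins, among them ZCCHC8 and RBM7 (the NEXT complex) and ZFC3H1 (the PAXT connection). Antisense RNAs that escape this decay can be spliced, polyadenylated and stable, as OIP5-AS1 is known to be.

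The promoters of the 6 members that passed the test for a difference between the groups are shown first, because 5 of these 6 start close to their sense gene. Each window runs 5′ to 3′ on the strand of the antisense transcript, from 250 bases before its RefSeq start to 50 bases from it, on GRCh38.p14. Capitals mark, on either strand, the GC box GGGCGG, the CCAAT box CCAAT and the ETS site CCGGAAG, as found by a script, and 2 motifs that overlap share 1 run of capitals.
RAB11B-AS1, chr19:8390642-8390941, minus strand: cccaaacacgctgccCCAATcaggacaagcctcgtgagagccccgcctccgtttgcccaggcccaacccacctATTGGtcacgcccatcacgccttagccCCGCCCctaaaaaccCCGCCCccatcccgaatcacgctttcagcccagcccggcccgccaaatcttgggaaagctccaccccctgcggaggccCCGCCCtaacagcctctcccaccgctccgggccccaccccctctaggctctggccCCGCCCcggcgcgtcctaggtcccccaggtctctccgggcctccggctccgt
ZNF674-AS1, chrX:46545240-46545539, plus strand: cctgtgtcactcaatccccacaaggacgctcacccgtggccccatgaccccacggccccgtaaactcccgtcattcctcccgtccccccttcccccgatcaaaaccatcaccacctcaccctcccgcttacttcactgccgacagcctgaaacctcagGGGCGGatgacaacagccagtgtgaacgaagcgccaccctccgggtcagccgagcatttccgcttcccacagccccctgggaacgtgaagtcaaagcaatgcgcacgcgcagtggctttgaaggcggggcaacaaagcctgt
IQCH-AS1, chr15:67521795-67522094, minus strand: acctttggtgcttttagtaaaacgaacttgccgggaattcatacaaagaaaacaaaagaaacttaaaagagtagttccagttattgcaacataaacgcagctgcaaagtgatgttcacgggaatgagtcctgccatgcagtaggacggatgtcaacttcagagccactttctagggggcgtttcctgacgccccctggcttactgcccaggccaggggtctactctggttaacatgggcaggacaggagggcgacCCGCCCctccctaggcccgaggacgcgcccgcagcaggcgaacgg
CD63-AS1, chr12:55728844-55729143, plus strand: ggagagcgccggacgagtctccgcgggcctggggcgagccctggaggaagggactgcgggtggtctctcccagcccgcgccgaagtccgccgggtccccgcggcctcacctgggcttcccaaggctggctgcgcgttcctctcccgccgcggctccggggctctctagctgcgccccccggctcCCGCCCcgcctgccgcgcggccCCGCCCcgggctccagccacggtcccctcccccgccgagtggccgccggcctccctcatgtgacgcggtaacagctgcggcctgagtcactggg
ILRUN-AS1, chr6:34695904-34696203, plus strand: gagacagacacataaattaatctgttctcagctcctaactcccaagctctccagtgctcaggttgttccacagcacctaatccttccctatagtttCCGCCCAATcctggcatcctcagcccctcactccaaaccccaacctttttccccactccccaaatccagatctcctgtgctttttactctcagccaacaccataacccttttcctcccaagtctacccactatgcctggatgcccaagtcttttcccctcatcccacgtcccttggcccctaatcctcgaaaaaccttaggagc
URB1-AS1, chr21:32392883-32393182, plus strand: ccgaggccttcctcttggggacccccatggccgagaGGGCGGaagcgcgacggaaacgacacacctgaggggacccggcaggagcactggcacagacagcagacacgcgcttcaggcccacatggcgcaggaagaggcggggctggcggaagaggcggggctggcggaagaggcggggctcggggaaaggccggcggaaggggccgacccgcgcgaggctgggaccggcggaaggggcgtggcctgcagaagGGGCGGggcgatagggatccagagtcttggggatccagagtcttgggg

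All 6 windows held a GC box, with 4 copies in RAB11B-AS1, 2 each in CD63-AS1 and URB1-AS1 and 1 in each of the others. In 3 of them the RefSeq start of the sense gene, read from the other strand, lay inside the window, 69 bases upstream of the antisense start for ZNF674-AS1, 85 bases for CD63-AS1 and 121 bases for URB1-AS1. The IQCH-AS1 start lay 267058 bases from that of IQCH. RefSeq gave a window for 167 of the 221 members. Of these 62.9% held a GC box, against 45.0% of the 35116 promoters in the RefSeq table, and the median GC content was 64.3% against 58.7%. The TATA box TATAAA was found in 5.99% of the members' windows and in 11.5% of all promoters, and a CCAAT box in 36.5% and 34.6%. CCGGAAG was found in 16.8% and 10.3%, the E-box CACGTG in 9.58% and 7.26%, and the polyadenylation signal AATAAA in 12.0% and 17.4%. These shares describe the letters in the windows and were not compared by a test.

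More members were higher after MTR4 knockdown than lower, by small amounts. The median log2 fold change of the 221 members was 0.12, and 156 of them (70.6%) had a positive value. Over all 18075 tested genes the median was 0.0062 and 51.1% were positive, and over the 13357 genes with 50 counts in each library the median was 0.0051. Against the mean of the controls, the members' median log2 difference was 0.10, 0.05 and 0.13 in MTR4 KD 1, 2 and 3. The summed level of the members was 1245, 1224 and 1261 CPM in the control libraries and 1330, 1327 and 1366 CPM in the knockdown libraries, so that the groups did not overlap. These are descriptions of a set chosen with results of these data known, and no test was run on the set. Without MTR4 KD 1 the members' median log2 fold change was 0.11.

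Few of the single differences passed the test. In the quasi-likelihood test of edgeR, fitted on all genes with condition alone, 6 members were higher at an adjusted p under 0.05 (2.71%), where 1.48% of all tested genes were, and 0 were lower, where 2.12% of all tested genes were. At an unadjusted p under 0.05, 34 members were higher (15.4%, against 8.93% of all genes) and 9 were lower (4.07%, against 9.84%). Past both a fold of 2 and an adjusted p under 0.05 there were 0 members in either direction, where 0.321% of all genes were higher and 0.509% lower. DESeq2's Wald test called 12 members higher (5.43%, against 3.16% of all genes) and 3 lower (1.36%, against 4.22%). In 51 members (23.1%) every knockdown library was above every control library, as in 12.1% of all genes, and in 18 (8.14%) every knockdown library was below, as in 12.6% of all genes.

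**Figure D1:**
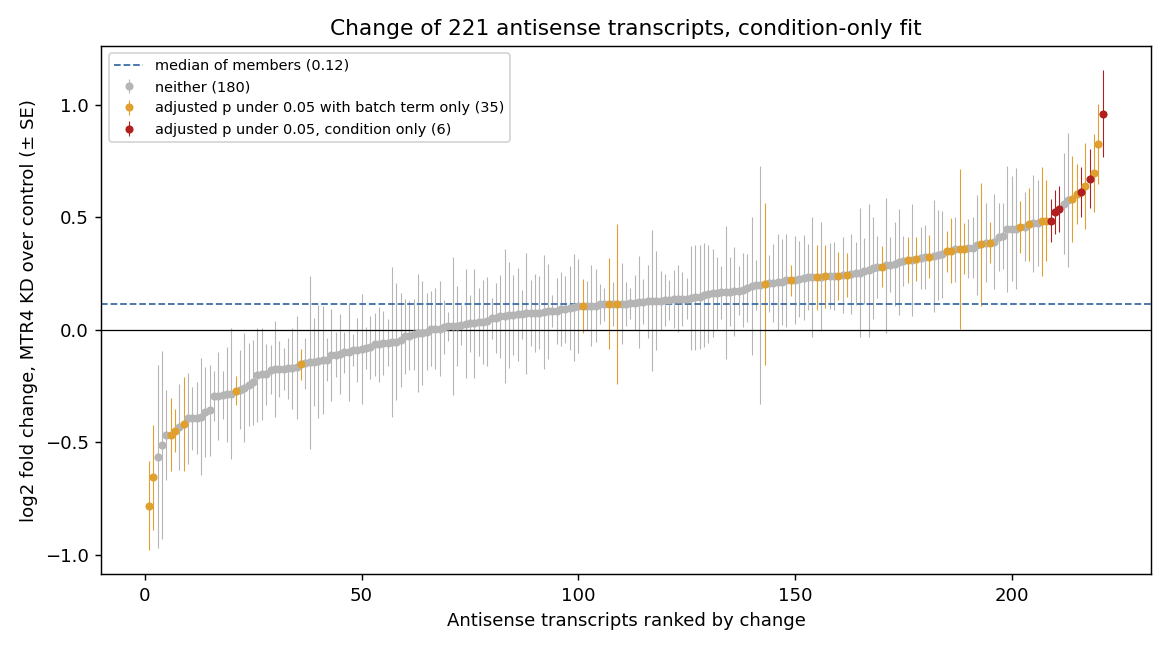
The log2 fold change of MTR4 KD over control (y axis, with its SE as a bar) of the 221 members, ranked along the x axis from the lowest to the highest in the condition-only fit. Red points are the 6 members called in that fit, yellow points the 35 called only with the library split as a term, grey points the rest, and the dashed line is the members' median of 0.12, above 0.

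The libraries also differed by how many alignments HTSeq set aside as not unique. This share of the entries was 34.7% to 37.5% in control 1, control 3 and MTR4 KD 3 and 14.8% to 18.2% in control 2, MTR4 KD 1 and MTR4 KD 2. The labels name no batch, but libraries on the same side of 30% deviated together from their group means (r of 0.50 to 0.54 across genes) and libraries on different sides against each other (-0.40 to -0.65). The split was therefore used as a library batch. With the batch as a term, the same test called 34 members higher (15.4%, against 9.43% of all genes) and 7 lower (3.17%, against 10.8% of all genes). Among the 13357 genes with 50 counts in each library, which share the members' minimum, the test called 12.0% higher and 13.2% lower with the batch term, and 1.89% and 2.65% without it, and the groups did not overlap in 13.4% higher and 14.0% lower. All 6 members called without the batch term were among the 34. Within the batch of more non-unique alignments the members' median log2 difference was 0.11, and within the other batch it was 0.10. In both batches 112 members were higher (50.7%, against 34.3% of all tested genes) and 47 lower (21.3%, against 33.7%) after knockdown. The batch with more non-unique alignments held a single knockdown library, MTR4 KD 3, and the other batch a single control, control 2. The 34 members called higher with the batch term had log2 fold changes between 0.20 and 0.85, and the 7 called lower had values between -0.68 and -0.19.

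**Figure D2:**
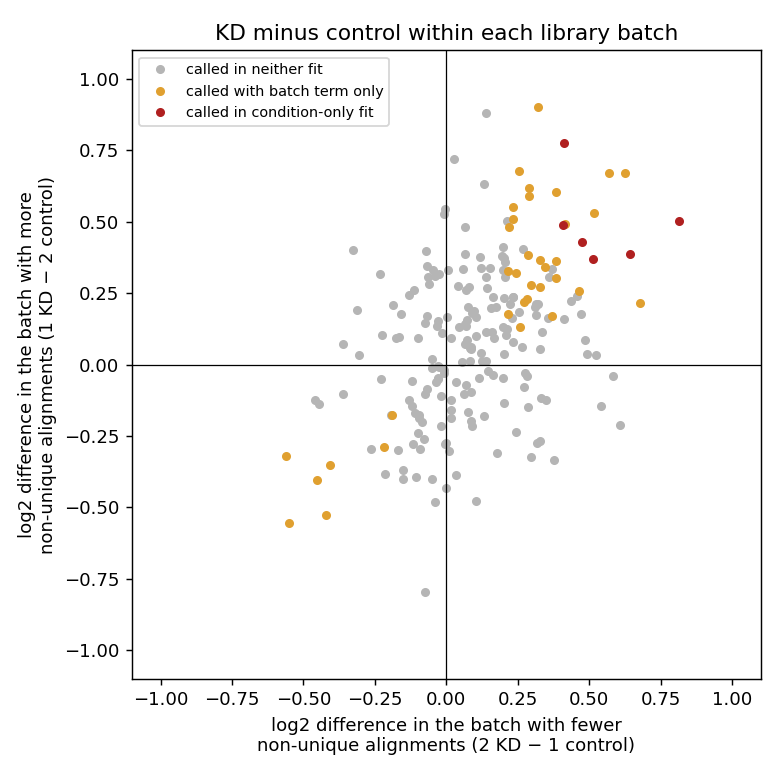
Each of the 221 members by its log2 difference, MTR4 KD minus control on log2(CPM + 0.5), within the batch with fewer non-unique alignments (x axis) and within the batch with more (y axis). The upper right part, higher in both batches, holds 112 members (50.7%, against 34.3% of all tested genes). The lower left part holds 47 (21.3%, against 33.7%), and the called members (red and yellow) lie in these parts.

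The 6 members called higher had from 1.24 to 9.06 CPM in the control libraries and from 2.04 to 12.4 CPM after knockdown, and in none of them did the groups overlap. RAB11B-AS1 (ENSG00000269386, chr19:8374376-8390691) had 1.35, 1.42 and 1.24 CPM in the control libraries and 2.67, 3.10 and 2.04 CPM after knockdown, the widest rise of the 6. Its log2 fold change was 0.96 ± 0.19 (SE; edgeR adjusted p = 0.0451), and the knockdown library of the batch with more non-unique alignments was the lowest of its group. The sense gene RAB11B, a small GTPase of recycling endosomes, followed the batch, with 136, 71.8 and 147 CPM in the controls and 87.3, 87.2 and 148 CPM after knockdown (log2 fold change -0.14, edgeR adjusted p = 0.852). With the batch term RAB11B was higher by a log2 fold change of 0.17 (edgeR adjusted p = 0.0438), so its direction depends on that term. The RefSeq start of RAB11B lay 331 bases inside RAB11B-AS1. Where the genes overlap, reads of RAB11B could not be separated from those of RAB11B-AS1 if the counting ignored strand.

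ZNF674-AS1 (ENSG00000230844, chrX:46545490-46548475) had 3.73, 4.10 and 3.12 CPM in the controls and 5.74, 5.51 and 6.2 CPM after knockdown, a log2 fold change of 0.67 ± 0.13 (SE; edgeR adjusted p = 0.0407). Its sense gene ZNF674 encodes a zinc finger protein and stood at 4.72 to 4.88 CPM and 5.08 to 5.25 CPM, a log2 fold change of 0.11 (edgeR adjusted p = 0.573). Almost all exon bases of ZNF674-AS1, 99.2%, lay outside any other gene. IQCH-AS1 (ENSG00000259673, chr15:67403611-67521844) had 5.09, 5.35 and 5.44 CPM in the controls and 8.64, 8.61 and 7.03 CPM after knockdown, a log2 fold change of 0.61 ± 0.11 (SE; edgeR adjusted p = 0.0321). IQCH, an IQ motif protein gene that it runs through, was at 0.685 to 1.22 CPM over the 6 libraries (log2 fold change -0.22, edgeR adjusted p = 0.694). The exon bases of IQCH-AS1 lay for 86.2% in introns of other genes, so reads from unspliced RNA of those genes could not be separated from its own if the counting ignored strand.

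CD63-AS1 (ENSG00000258056, chr12:55729094-55730852) had 7.67, 9.06 and 7.61 CPM in the controls and 12.0, 12.4 and 10.9 CPM after knockdown, a log2 fold change of 0.54 ± 0.10 (SE; edgeR adjusted p = 0.0386). CD63, a tetraspanin of late endosomes and extracellular vesicles, was at 678 to 814 CPM in the controls and 695 to 743 CPM after knockdown, and its log2 fold change was -0.024 (edgeR adjusted p = 0.908). ILRUN-AS1 (ENSG00000272288, chr6:34696154-34697471) had 4.51, 4.90 and 4.86 CPM in the controls and 6.78, 7.23 and 6.48 CPM after knockdown, a log2 fold change of 0.52 ± 0.10 (SE; edgeR adjusted p = 0.0348). Its sense gene ILRUN, known as a regulator of antiviral and inflammatory signalling, had a log2 fold change of 0.12 (edgeR adjusted p = 0.335). URB1-AS1 (ENSG00000256073, chr21:32393133-32393960) had 4.80, 4.70 and 5.02 CPM in the controls and 6.63, 7.20 and 6.49 CPM after knockdown, a log2 fold change of 0.49 ± 0.10 (SE; edgeR adjusted p = 0.0407). URB1, a ribosome biogenesis factor, had 184, 195 and 186 CPM in the controls and 171, 174 and 153 CPM after knockdown. Its log2 fold change of -0.18 did not pass the test (edgeR adjusted p = 0.218), and with the batch term the value of -0.22 did (edgeR adjusted p = 0.00201).

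**Figure D3:**
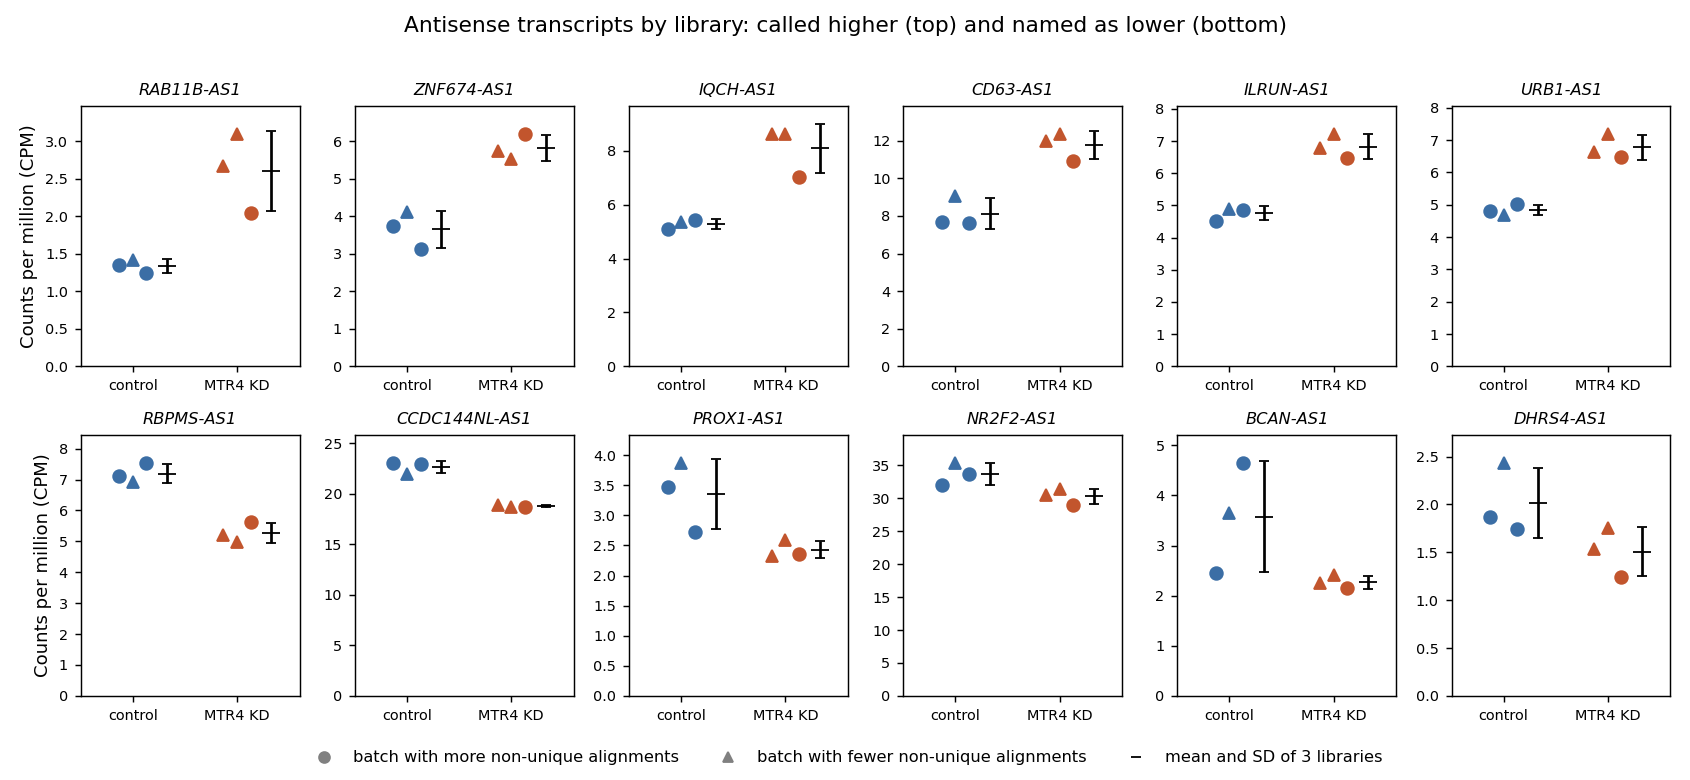
CPM (y axis, from 0) in each library of the 6 members called higher without the batch term (top row) and of the 6 members with the smallest p among those lower with the batch term (bottom row). Blue marks control and orange MTR4 KD libraries, circles the batch with more and triangles the batch with fewer non-unique alignments, and the bar gives the mean and SD of 3 libraries. In the top row the groups do not overlap in any panel, and in the bottom row they overlap only in DHRS4-AS1.

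The calls without the batch term depended on single libraries. Leaving out control 1, control 3, MTR4 KD 1 or MTR4 KD 2 left 0 members called higher. Leaving out control 2 or MTR4 KD 3 left 6, of which 4 were among the 6 named above. In the same order of fits 1, 2, 1, 1, 6 and 5 sense genes were called higher, against 4 with all libraries. Called lower were 0, 0, 0, 0, 8 and 4 sense genes, against 2. The shares of all tested genes called in these fits are not given here, so the members' loss of calls was not set apart from that of other genes. Control 2 was the only control in the batch with fewer non-unique alignments, and MTR4 KD 3 the only knockdown library in the other. Without either library a whole group lay in the same batch, so these fits mix condition with batch more than the full set does.

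Other members were called higher only with the batch term or stood apart without passing the test. DBH-AS1, antisense to the dopamine beta-hydroxylase gene, had 1.07, 1.17 and 1.38 CPM in the controls and 1.87, 2.31 and 2.23 CPM after knockdown. Its log2 fold change was 0.83 ± 0.18 (SE; edgeR adjusted p = 0.0560 without and 0.00792 with the batch term), and DBH had a log2 fold change of 0.70 (edgeR adjusted p = 0.119). CKMT2-AS1, which runs across the mitochondrial creatine kinase gene CKMT2, had 5.06, 7.27 and 5.62 CPM in the controls and 10.8, 10.4 and 7.93 CPM after knockdown (log2 fold change 0.70, edgeR adjusted p = 0.0854 without and 0.000682 with the batch term). In each batch it was higher after knockdown, by 0.53 and 0.52 on the log2(CPM + 0.5) scale. ZNF667-AS1, which starts next to the zinc finger gene ZNF667, had 4.72, 3.88 and 4.18 CPM in the controls and 5.80, 6.21 and 7.37 CPM after knockdown, and the groups did not overlap (log2 fold change 0.60, edgeR adjusted p = 0.0597 without and 0.000575 with the batch term). TMEM44-AS1 had 1.26, 1.85 and 1.74 CPM in the controls and 2.79, 2.49 and 2.30 CPM after knockdown, with a log2 fold change of 0.64 (edgeR adjusted p = 0.130 without and 0.0416 with the batch term). Its sense gene TMEM44, a membrane protein gene, had 4.54, 5.54 and 5.14 CPM in the controls and 3.55, 4.19 and 3.57 CPM after knockdown (log2 fold change -0.43, edgeR adjusted p = 0.132 without and 0.0130 with the batch term). In neither TMEM44-AS1 nor TMEM44 did the groups overlap.

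The size of the SLC9A3-AS1 difference depended on MTR4 KD 3. It had 30.3, 24.4 and 29.3 CPM in the controls and 29.5, 31.8 and 56.0 CPM after knockdown, so that MTR4 KD 3 was the highest library, MTR4 KD 2 lay just above the controls and MTR4 KD 1 among them. SLC9A3, the sodium/hydrogen exchanger that it runs through, had 8.22 CPM in MTR4 KD 3 and 1.66 to 3.66 CPM in the other 5 libraries. The log2 fold change of SLC9A3-AS1 was 0.48 ± 0.24 (SE; edgeR adjusted p = 0.336 without and 0.000561 with the batch term). Without MTR4 KD 3 it was 0.13, and within the batches the log2(CPM + 0.5) differences were 0.90 and, in the batch that does not hold that library, 0.32. None of its exon bases lay outside other genes.

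The 7 members lower with the batch term were BCAN-AS1, ARHGEF4-AS1, DHRS4-AS1, PROX1-AS1, RBPMS-AS1, CCDC144NL-AS1 and NR2F2-AS1, and without that term none of the 7 passed the test. ARHGEF4-AS1 had 1.67, 1.30 and 1.64 CPM in the controls and 0.831, 0.853 and 0.995 CPM after knockdown, the lowest log2 fold change of all members at -0.78 ± 0.20 (SE; edgeR adjusted p = 0.0896 without and 0.0425 with the batch term). ARHGEF4, a guanine nucleotide exchange factor gene whose start lies 80 bases from that of the antisense transcript, was lower as well, with 19.9, 17.9 and 19.3 CPM in the controls and 13.4, 14.1 and 14.4 CPM after knockdown (log2 fold change -0.45, edgeR adjusted p = 0.0280). RBPMS-AS1, which starts near the RNA-binding protein gene RBPMS, had 7.12, 6.92 and 7.53 CPM in the controls and 5.22, 4.97 and 5.63 CPM after knockdown (log2 fold change -0.45, edgeR adjusted p = 0.0547 without and 0.00785 with the batch term). RBPMS had a log2 fold change of -0.58 without the batch term (edgeR adjusted p = 0.108) and of -0.44 with it (edgeR adjusted p = 9.82e-06). BCAN-AS1 had 2.45, 3.65 and 4.64 CPM in the controls, a spread wider than that after knockdown at 2.25, 2.41 and 2.15 CPM, and its log2 fold change was -0.66 (edgeR adjusted p = 0.189 without and 0.0354 with the batch term). BCAN, which encodes the proteoglycan brevican, had a log2 fold change of -0.87 (edgeR adjusted p = 0.0829 without and 0.00269 with the batch term).

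PROX1-AS1 lies against PROX1, a homeobox transcription factor of hepatocytes and lymphatic endothelium. It had 3.47, 3.87 and 2.72 CPM in the controls and 2.33, 2.59 and 2.37 CPM after knockdown (log2 fold change -0.47, edgeR adjusted p = 0.186 without and 0.0255 with the batch term), and PROX1 was at 54.8 to 65.4 CPM and 48.6 to 51.6 CPM (log2 fold change -0.26, edgeR adjusted p = 0.138 without and 0.00876 with the batch term). Neither gene's groups overlapped. CCDC144NL-AS1 had 23, 22.0 and 22.9 CPM in the controls and 18.9, 18.7 and 18.7 CPM after knockdown, a narrow spread in both groups and a log2 fold change of -0.27 (edgeR adjusted p = 0.0825 without and 0.00810 with the batch term). DHRS4-AS1, antisense to a retinal reductase gene, had 1.86, 2.43 and 1.74 CPM and 1.53, 1.75 and 1.24 CPM, and here the groups overlapped (log2 fold change -0.42, edgeR adjusted p = 0.336 without and 0.0418 with the batch term). DSCAM-AS1, whose sense gene DSCAM was listed at 0 to 0.0489 CPM, was at 1.46 to 2.03 CPM in the controls and at 1.21 to 1.30 CPM after knockdown and was called in neither fit (edgeR adjusted p = 0.283 without and 0.210 with the batch term).

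The 5 members with the highest CPM were FGD5-AS1, OIP5-AS1, TP73-AS1, NR2F2-AS1 and SLC9A3-AS1, and none of them was called without the batch term. FGD5-AS1, a spliced long noncoding RNA, had 110, 114 and 104 CPM in the controls and 112, 114 and 104 CPM after knockdown, and its log2 fold change was 0.016 ± 0.07 (SE; edgeR adjusted p = 0.921). Its sense gene FGD5, an endothelial exchange factor for CDC42, was at 0 to 0.149 CPM. OIP5-AS1, a conserved cytoplasmic RNA also known as Cyrano, had 94.1, 105 and 90.0 CPM in the controls and 113, 107 and 96.8 CPM after knockdown (log2 fold change 0.13 ± 0.09 (SE), edgeR adjusted p = 0.472). TP73-AS1 was at 29.8 to 32.3 CPM and 28.3 to 30.9 CPM (log2 fold change -0.09, edgeR adjusted p = 0.548). NR2F2-AS1, antisense to the gene of the orphan nuclear receptor COUP-TFII, had 32.0, 35.3 and 33.7 CPM in the controls and 30.5, 31.4 and 29.0 CPM after knockdown. Its groups did not overlap, and its log2 fold change of -0.15 was called with the batch term only (edgeR adjusted p = 0.291 without and 0.0270 with it). Calls with the batch term were more frequent where counts were high. Ordered by mean count into sets of 73, 74 and 74 members, 3, 7 and 24 were called higher with this term (4.11%, 9.46% and 32.4%). The shares called higher were 9.43% of all tested genes and 12.0% of the genes with 50 counts in each library. In the same order 2, 2 and 3 members were called lower (2.74%, 2.7% and 4.05%, against 10.8% of all tested genes). The median log2 fold change of the sets was 0.11, 0.13 and 0.11.

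Position relative to the sense gene divided the members into 4 classes, by the GENCODE gene models. Of the 221 members, 69 were head-to-head, with starts at most 1000 bases apart, and 56 of these had a positive log2 fold change. This class was assigned first, by the distance of the starts alone, so its members may also overlap the sense gene. RAB11B-AS1 and ILRUN-AS1 do, with the sense start 331 and 613 bases downstream of the antisense start. The median of the head-to-head members was 0.16, and 5 were called higher without the batch term (7.25%, against 1.48% of all tested genes). These were the 6 members named above except IQCH-AS1. With the batch term 10 were called higher and 3 lower, where 9.43% of all tested genes, and 12.0% of genes with 50 counts in each library, were higher and 10.8% and 13.2% lower. In 113 of the other members the antisense transcript overlapped the sense gene with shared exon bases. These had a median of 0.10, 74 positive values and the call of IQCH-AS1, and with the batch term 18 were called higher and 2 lower. In 35 of the other members it overlapped without shared exon bases. These had a median of 0.05, 22 positive values and none of the 6 calls, and with the batch term 4 were called higher and 2 lower. The 4 members apart from their sense gene were all positive, at a median of 0.37. The order of the class medians was a description and was not tested.

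**Figure D4:**
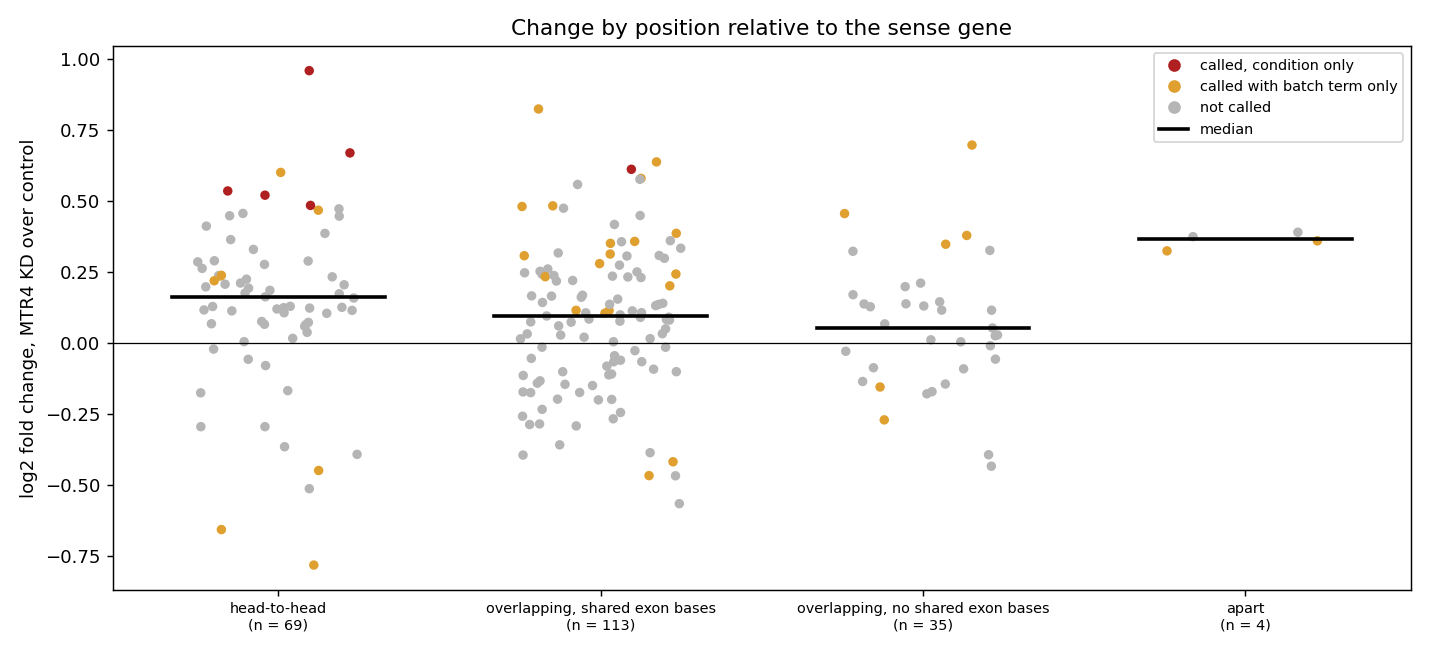
The log2 fold change of MTR4 KD over control (y axis) of every member, by its position relative to the sense gene (x axis), with the class median as a black bar. Red points were called without the batch term, yellow ones with it only. The median is 0.16 in the 69 head-to-head members, which may also overlap the sense gene. It is 0.10 and 0.05 in the other overlapping classes and 0.37 in the 4 members apart.

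Overlap with other genes bears on what the counts measure, since the sources used here do not state whether the libraries or the counting kept strand. In 177 members some exon bases lay in an exon of another gene, and in 44 none did, with medians of 0.12 and 0.07. Without the batch term 5 of the 177 were called higher (2.82%) and 1 of the 44 (2.27%), where 1.48% of all tested genes were. In 121 members most exon bases lay outside any other gene, and these had a median log2 fold change of 0.13 with 94 positive values and 4 calls (3.31%). In 71 members most exon bases lay in an intron of another gene, and these had a median of 0.05 with 41 positive values and 1 call (1.41%). In 19 the bases were mixed, with a median of 0.20, 15 positive values and 1 call (5.26%). In 10 most lay in an exon of another gene, with a median of 0.04, 6 positive values and no call. HTSeq set aside 5.89% to 8.29% of the entries as ambiguous between genes. The batch moved the members about as far as the other genes. Between the batches, averaged over both groups, the members differed by a median of 0.13 in either direction on the log2(CPM + 0.5) scale, against 0.15 for all tested genes, and in 38.9% of the members the batch difference exceeded the difference between the conditions, against 55.3% of all tested genes.

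The sense genes as a group did not share the members' shift. The 210 tested sense genes had a median log2 fold change of 0.0071, with 111 positive and 99 negative values. In 85 pairs both partners were higher, in 63 the antisense transcript was higher and the sense gene lower, in 26 the reverse, and in 36 both were lower. The Spearman correlation of the log2 fold changes over the 210 pairs was 0.18, and 0.20 with the batch term. It is across genes, which are not independent replicates, and both partners were read from the same libraries and in part from adjoining sequence. With the batch term, 19 of the 210 tested sense genes were called higher and 23 lower, beside 9.43% and 10.8% of all tested genes. Of the 34 members called higher with it, 25 had a sense gene that was not called and 5 had a sense gene called higher. The sense gene was called lower in 3 pairs (MELTF-AS1, TMEM44-AS1 and URB1-AS1), and that of C10orf95-AS1 was not tested. Whether the partners of called members were called more often than other sense genes with the batch term was not tested. Of the 7 members called lower with that term, ARHGEF4-AS1, BCAN-AS1, PROX1-AS1 and RBPMS-AS1 had a sense gene called lower, and in the other 3 pairs the sense gene was not called. As a single value per library, the log2 ratio of antisense to sense was higher in every knockdown library for ZNF674-AS1, IQCH-AS1, CD63-AS1, ILRUN-AS1, URB1-AS1 and TMEM44-AS1, with an exact two-sided permutation p = 0.1, the smallest that 3 against 3 libraries allow, so no pair could pass a threshold of 0.05. For RAB11B-AS1 the ratios overlapped (exact permutation p = 0.2). These pairs were named for the difference of the antisense partner, which the ratio in part restates, so the ratios are a description.

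Without the batch term 4 of the 210 sense genes were called higher (1.90%, against 1.48% of all tested genes) and 2 lower (0.952%, against 2.12%), shares near or under those of all genes, and the antisense transcript of none of the 6 was called in that fit. BBOX1, the last enzyme of carnitine synthesis, had 4.01, 3.54 and 3.86 CPM in the controls and 11.6, 12.5 and 11.6 CPM after knockdown (log2 fold change 1.64 ± 0.09 (SE), edgeR adjusted p = 0.000505). BBOX1-AS1 had 3.78, 3.04 and 3.37 CPM and 2.97, 3.59 and 3.00 CPM, with overlapping groups (log2 fold change -0.09, edgeR adjusted p = 0.792). FLRT2, a membrane adhesion protein, rose by a log2 fold change of 0.91 (edgeR adjusted p = 0.0171), and FLRT2-AS1 had 0.28 (edgeR adjusted p = 0.573). USP2, a deubiquitinase, rose by 0.64 and ELOVL2, a fatty acid elongase, by 0.37 on the log2 scale (edgeR adjusted p = 0.0172 for each), with 0.07 for USP2-AS1 and 0.16 for ELOVL2-AS1. ARHGEF4 and TBC1D8, a Rab GTPase-activating protein gene with a log2 fold change of -0.43 (edgeR adjusted p = 0.0155), were the sense genes called lower, and TBC1D8-AS1 had a log2 fold change of 0.03. Whether the partners' changes differ was not tested across all genes.

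**Figure D5:**
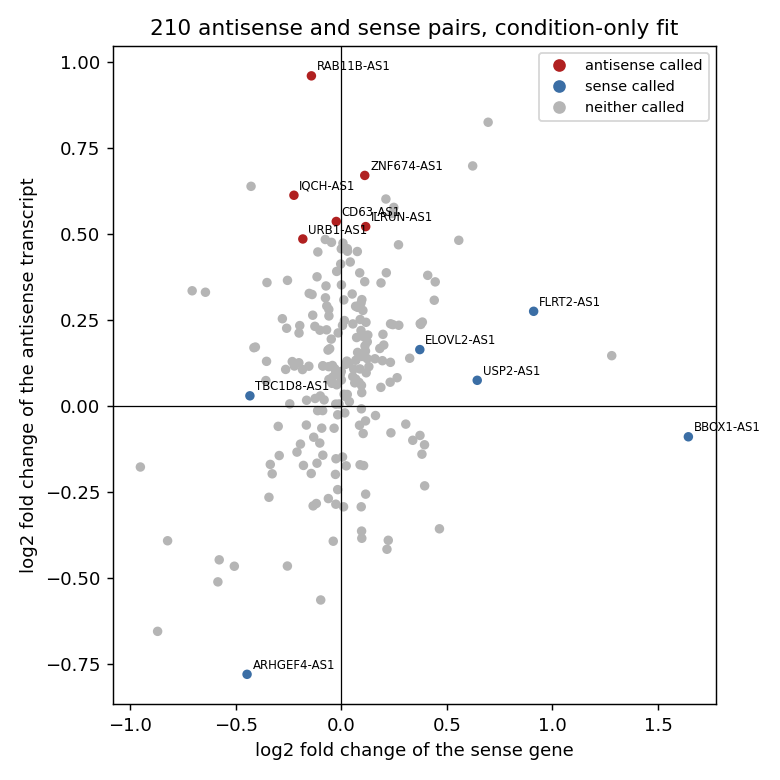
The log2 fold change of the sense gene (x axis) and of its antisense transcript (y axis) in the 210 pairs with both partners tested, without the batch term. Red points are the 6 pairs whose antisense transcript was called and blue points the 6 pairs whose sense gene was called, each with the member's name. The red points lie between -0.22 and 0.12 on the x axis.

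The antisense transcripts were scarce beside their sense genes. Per kilobase of exon, 162 of the 221 members were below their sense gene, the median level was 0.805 CPM per kb for the members and 4.09 CPM per kb for the sense genes, and the median ratio of sense to antisense was 3.55. CD63-AS1 was at 6.82 CPM per kb and CD63 at 303. ZNF674-AS1, at 1.84 CPM per kb, was above ZNF674 at 0.803, and IQCH-AS1, at 0.579, above IQCH at 0.147. Lengths came from a later annotation than the one used for counting, so these levels are approximate.

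Groups of members were also set out by the kind of their sense gene, after the values had been seen, and their counts stand beside 9.43% of all tested genes called higher and 10.8% called lower with the batch term, and 1.48% and 2.12% without it. Of the 23 members antisense to a transcription factor gene, 14 had a positive log2 fold change, none was among the 6 called without the batch term, and with it 6 were higher and 2 lower. FOXD2-AS1, which lies apart from the forkhead gene FOXD2, had 6.05, 7.04 and 7.94 CPM in the controls and 9.09, 8.83 and 9.09 CPM after knockdown (log2 fold change 0.36, edgeR adjusted p = 0.150 without and 0.0282 with the batch term). Of 13 members antisense to ZNF genes, 9 were positive and 1, ZNF674-AS1, was called without the batch term. With that term ZNF667-AS1 and ZNF674-AS1 were called. Of 7 antisense to solute carrier (SLC) genes, 6 were positive, and SLC9A3-AS1 and SLC25A25-AS1 were called with the batch term.

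The threshold of 50 counts cut through a dense range of values. Just inside it, SAPCD1-AS1, UBE2D3-AS1 and C1QTNF1-AS1 had 50 counts in their lowest library and log2 fold changes of -0.29, -0.20 and 0.17. Just outside, PRKCZ-AS1 and TAPT1-AS1 had 49 and RBM26-AS1 had 48, with log2 fold changes of -0.047, 0.054 and 0.018. The other 323 tested -AS1 genes had fewer than 50 counts in a library. Their median log2 fold change was 0.12, with 59.8% positive values. With the batch term 2 of them were called higher (0.619%) and 5 lower (1.55%), where 9.43% and 10.8% of all tested genes were. Without that term 1 was called, lower, where 1.48% of all tested genes were called higher and 2.12% lower. Among other named classes with 50 counts in each library, the 112 divergent transcripts (symbols ending in -DT) had a median of 0.15, 5 called higher and 0 lower, and the 152 LINC genes a median of 0.05, 3 called higher and 2 lower. The 12 -AS2 and -AS3 genes had a median of -0.0093 with 1 called lower, and the 11895 protein-coding genes a median of -0.0014 with 220 higher and 339 lower. The 2 -IT1 genes had values of 0.26 and 0.34 and the 2 -OT1 genes of -0.03 and 0.16, none of them called.

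Of the genes that act in nuclear decay, 34 of 34 listed were tested, and without the batch term MTREX was the only one called, lower. With that term ZCCHC8, the scaffold of the NEXT complex (log2 fold change 0.24, edgeR adjusted p = 0.00804), NRDE2, which binds MTR4 (0.27, edgeR adjusted p = 0.00593), and PABPN1, the nuclear poly(A)-binding protein (0.17, edgeR adjusted p = 0.0469), were higher, and the exosome core subunits EXOSC2 (-0.19, edgeR adjusted p = 0.0152) and EXOSC8 (-0.26, edgeR adjusted p = 0.0263) were lower beside MTREX. These 3 higher and 3 lower of 34 are near the shares of all tested genes with that term, 9.43% higher and 10.8% lower. The 9 core subunits had a median log2 fold change of -0.14, the 3 nucleases 0.08, the 18 cofactors 0.03 and the 4 cleavage factors 0.01.

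The libraries were rich in transcripts of the labelled cell type. The 10 hepatocyte and hepatoma markers summed to 23900 to 25348 CPM in the controls and 24018 to 25871 CPM after knockdown, and 4 of them, ALB, APOA1, APOH and TTR, were called higher and none lower, where 1.48% and 2.12% of all tested genes were. SERPINA1, AHSG, AFP and TF had negative log2 fold changes of -0.21, -0.43, -0.12 and -0.08. With the batch term 5 were called higher and 1, AHSG (-0.55, edgeR adjusted p = 0.0164), lower, where 9.43% and 10.8% of all tested genes were. The 6 fibroblast markers summed to 8.24 to 14.6 CPM and 6.44 to 11.4 CPM, and 3 endothelial markers to at most 0.571 CPM, with PECAM1 not analysed here. The 5 blood markers summed to 30.3 to 35.1 CPM and 27.9 to 44.2 CPM, most of it LYZ. None of the fibroblast, endothelial or blood markers was called without the batch term. With it LYZ (log2 fold change -0.26, edgeR adjusted p = 0.0119) and COL3A1 (-0.82, edgeR adjusted p = 0.0398) were lower, as were 10.8% of all tested genes. Most of the range after knockdown was HBB in MTR4 KD 1, given above. The part of these markers in the members' differences was not tested.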

How the data were processed

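RNA-seq of 3 control and 3 MTR4 KD libraries of PLC/PRF5 cells was analysed from the raw counts per gene that the authors deposited for each library, without normalization. The submitters' processing notes name HISAT2 2.1.0, HTSeq, DESeq2 and the build GRCh38. Strand settings are not given in the sources used here. HTSeq's classes of unassigned entries, 37.7% to 49.3% of all entries in a library, were left out of library sizes and tests. Between 60686786 and 72708682 counts per library lay on genes.

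Symbols and gene models came from GENCODE 44 lifted to GRCh37, which held 56959 of 60675 counted genes. The study's methods name Ensembl release 84. Positions on GRCh38 and promoters came from RefSeq (215 members with a position, 167 with a promoter). Each member's sense gene is the symbol without -AS1, matched also by older symbols.

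Genes were filtered with edgeR 4.0.16 (filterByExpr, minimum of 10 counts), scaled by TMM and compared with the quasi-likelihood test with condition as its only term, in R 4.3.3 with limma 3.58.1. P-values were adjusted by Benjamini-Hochberg over 18075 genes. CPM used TMM library sizes, and ratios and within-batch differences used log2(CPM + 0.5). The sign of a log2 fold change is MTR4 KD over control. DESeq2 1.42.0, other scalings, no filter, a replicate block, a library batch term, other count minimums and leaving out each library were the alternatives. Python 3.11.15 with pandas 2.3.3, scipy 1.17.1 and matplotlib 3.10.9 made tables, exact tests and plots. On simulated counts for 18075 genes, the condition-only test recovered 128 of 200 genes changed by a fold of 2 (64%) and called 10 others. The simulated counts held no batch difference, so these figures need not hold for the libraries here, which split by batch.

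Named members were those called without the batch term, the 6 per direction with the smallest p with it, the 5 with the highest CPM, the 5 per direction with the largest fold among those whose groups did not overlap, and the 3 on each side of the count minimum, with their sense genes. Other members were named after their values were seen. The members and the lists were chosen with earlier results of these data known.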

Additional observations from a re-analysis of the deposited data

How the results depend on the processing

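The median log2 fold change of the members stayed between 0.09 and 0.15 under all alternatives, and 0 members were lower past both thresholds under any of them. DESeq2's Wald test called 12 members higher and 3 lower, and 8 sense genes higher and 10 lower, and the library batch term called 34 and 7 members and 19 and 23 sense genes. Leaving out 1 library gave 0 to 6 members higher and 0 lower, 0 to 1 members higher past both thresholds (1 without MTR4 KD replicate 3), 1 to 6 sense genes higher and 0 to 8 sense genes lower. The shares of all tested genes called without each library are not given here. Without the filter 4 sense genes were lower, and 4 of the 6 members called higher remained. The replicate numbers did not pair the samples: same-numbered libraries correlated at -0.413, 0.50 and 0.526 in their deviations, each number in turn, and control 1 went with MTR4 KD 3 (0.510). A replicate block called 6 members higher, 5 of them as without it, and 7 sense genes lower. The sign turned for 7 sense genes and 1 member. With the batch term the log2 fold changes were 0.17 for RAB11B, 0.038 for CCDC144NL, 0.015 for NR2F2 and -0.018 for FGD5-AS1. Leaving out 1 library gave -0.44 (without MTR4 KD 3) to 0.043 (without control 3) for RAB11B, -0.083 (control 1) to 0.046 (control 2) for CD63, -0.32 (MTR4 KD 3) to 0.86 (MTR4 KD 1) for SLC9A3, -0.24 (MTR4 KD 2) to 0.18 (MTR4 KD 1) for CCDC144NL, -0.090 (control 2) to 0.023 (control 1) for NR2F2, -0.028 (control 3) to 0.12 (control 2) for OIP5, -0.25 (control 1) to 0.31 (control 2) for SAPCD1, and -0.019 (control 3) to 0.054 (MTR4 KD 3) for FGD5-AS1. The cause was not tested. Of all values recomputed for named genes, 564 kept direction and side of the threshold or stayed within the replicate spread, 38 passed the threshold newly, 35 lost it, 33 moved further than the spread and 16 turned sign. The 73 members with the fewest counts gave 3 of the 34 calls with the batch term, and the part of depth in this was not tested.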
